A study of Homo sapiens with 4 samples.

Results

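Genes of fatty acid oxidation were described across RNA of control and CBX7-overexpressing T24 cells. The set held 35 of the 60623 genes in the deposited table. It was drawn up by function (carnitine shuttle, acyl-CoA synthetases, mitochondrial and peroxisomal β-oxidation, electron transfer and regulators), around the higher level of CPT1A in CBX7-overexpressing cells, which was already known from these same libraries. The comparison of CBX7 with control cells therefore chose the set, and its values in these genes are given as a description. No p-value is printed for a gene of the set, and counts of its genes past a threshold are given beside the share over all genes, with nothing read from them. After the filter on low counts 33 of the 35 genes were among the 14862 genes tested. ACADL and PPARGC1A did not pass, and ACSL5 and PDK4 passed through the control libraries only.

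T24 is an established human bladder carcinoma cell line, and all libraries came from it, grown in RPMI medium with serum. The groups were control cells (2 libraries) and cells overexpressing CBX7 (2 libraries), for which the full-length CBX7 was cloned into a pCDH-3xFLAG vector according to the methods of the study. CBX7 is a chromobox protein of the Polycomb repressive complex PRC1, and the comparison addressed which transcripts change when it is overexpressed. The labels give the libraries a number only and nothing says that they came from separate cultures, so p-values measure the spread between these libraries, which may be technical.

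Long-chain fatty acids are activated to acyl-CoA by acyl-CoA synthetases, and carnitine palmitoyltransferase 1 on the outer mitochondrial membrane moves the acyl group to carnitine. This step, the entry into mitochondrial β-oxidation, is inhibited by malonyl-CoA. After exchange across the inner membrane, carnitine palmitoyltransferase 2 restores the acyl-CoA, which the enzymes of the matrix shorten in repeated cycles of dehydrogenation, hydration, dehydrogenation and thiolysis. The nuclear receptors PPARα and PPARδ activate many genes of the pathway in tissues that burn fat. CPT1A is the form of liver and most other tissues, CPT1B that of muscle and CPT1C that of brain.

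Summed counts ran from 20800910 to 25135488 per library. CBX7 itself rose from 10.3 ± 0.898 to 1685 ± 127 CPM (counts scaled to library depth with TMM factors; mean ± SD, n = 2 libraries), a log2 fold change of 7.35 (SE 0.18; adjusted p = 0.000584, edgeR quasi-likelihood test with Benjamini-Hochberg adjustment). Counts do not separate the introduced from the cells' own transcript. The keratins KRT7, KRT8 and KRT18 were abundant, while 8 of 15 urothelial and epithelial markers, including KRT20, CDH1 and the uroplakins UPK1A, UPK1B, UPK2 and UPK3A, had at most 3 counts in every library and KRT5 was at 0. Markers of the urothelial and epithelial list summed in control to 3159 to 3255 TPM, the deposited level per transcript length, and to 3362 to 3738 TPM in CBX7 libraries. The lists of other cell types stayed low: stromal markers summed to 2.18 to 2.35 and 2.31 to 6.29 TPM, endothelial markers to 0.32 in each control and 0.19 in each CBX7 library, immune markers to 9.50 to 11.6 and 6.34 to 7.11 TPM, nearly all of it CD68, adipocyte markers to 1.92 to 2.61 and 3.66 to 4.17 TPM, and hepatocyte markers to 0 to 0.05 and 0.07 to 0.46 TPM. One library stood apart. Relative to its same-numbered control, CBX7 replicate 1 had lower counts for longer genes (Spearman −0.62 across 11077 genes averaging 100 counts or more) and higher counts for GC-rich genes (0.41), against 0.04 and 0.07 in replicate 2. Values are therefore also given after each library was corrected for how its counts vary with length and GC. Fewer cells of a type and less RNA per cell cannot be told apart in such bulk samples.

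CPT1A (ENSG00000110090, chr11:68754620-68844410, minus strand, GRCh38) showed the largest log2 fold change among the tested genes of the set in the fit to all 4 libraries. Its normalized level was 17.7 and 16.2 CPM in the control libraries and 41.8 and 50.8 CPM in the CBX7 libraries. Both CBX7 libraries lay above both controls without overlap, at 46.3 ± 6.32 against 16.9 ± 1.09 CPM (SD, n = 2). The log2 fold change was 1.45 (SE 0.16), or 2.74-fold, and 1.43 after the length and GC correction. Without CBX7 replicate 1 it was 1.59 and without CBX7 replicate 2 it was 1.30. Among all genes tested 103 had a larger log2 fold change, and among the 12181 of these that averaged 50 counts or more 35 did. Per transcript length, CPT1A stood at 4.62 and 4.46 TPM in control and at 9.18 and 14.5 TPM in CBX7 cells, so that the ratio between same-numbered libraries was 1.99 for replicate 1 and 3.25 for replicate 2 (2.36 and 3.14 on the CPM scale). The TPM of CPT1A per CPM was 0.22 in CBX7 replicate 1 and 0.261 to 0.286 in the other libraries.

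The sequences before the starts of CPT1A and CPT2, the outer and inner carnitine palmitoyltransferases that were both higher in CBX7 cells, are shown because their CG content differed (RefSeq, GRCh38.p14, 250 bases before the annotated start, 5′ to 3′ on the gene's strand, CG dinucleotides in capitals). The CPT1A window is chr11:68844278-68844527, minus strand, and the CPT2 window is chr1:53196574-53196823, plus strand.
CPT1A: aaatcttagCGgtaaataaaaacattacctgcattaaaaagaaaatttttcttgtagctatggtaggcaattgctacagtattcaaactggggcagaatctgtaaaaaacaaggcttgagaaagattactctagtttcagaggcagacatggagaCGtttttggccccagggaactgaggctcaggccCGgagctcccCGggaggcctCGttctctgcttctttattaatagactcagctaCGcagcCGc
CPT2: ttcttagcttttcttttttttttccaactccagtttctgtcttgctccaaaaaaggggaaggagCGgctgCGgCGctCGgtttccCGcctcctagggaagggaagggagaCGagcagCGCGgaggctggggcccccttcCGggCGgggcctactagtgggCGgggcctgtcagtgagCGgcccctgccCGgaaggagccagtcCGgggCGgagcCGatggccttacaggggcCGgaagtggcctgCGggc
The CPT1A window held 7 CG dinucleotides at a GC content of 44.4%, and the CPT2 window held 18 at 65.2%. Over all 35116 such windows of the genome's genes the median was 11 CG dinucleotides and 58.0% GC. In GENCODE release 29 the outermost start of each gene lies further upstream, so that part of the CPT1A window and the whole CPT2 window fall within the annotated gene.

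**Figure D1:**
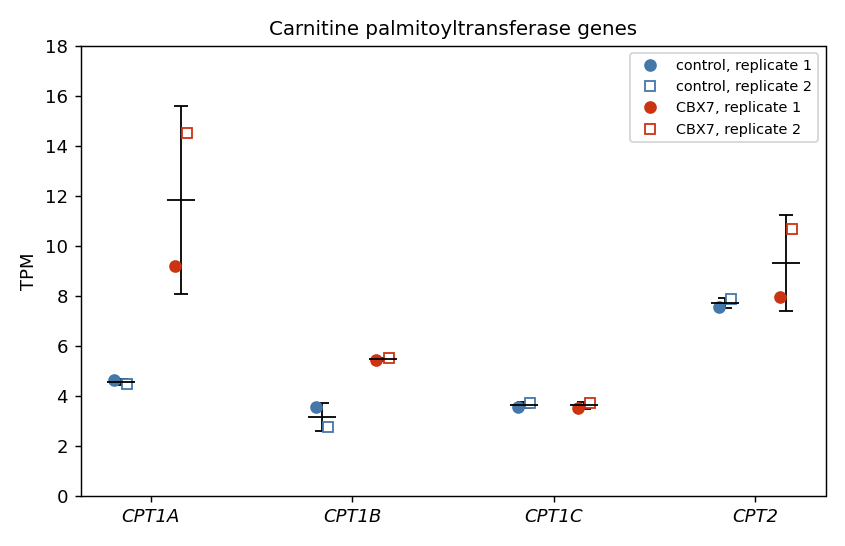
TPM of the carnitine palmitoyltransferase genes in the 4 libraries, control in blue and CBX7 in red, with filled circles for replicate 1 and open squares for replicate 2. Horizontal lines are means and bars are SD of 2 libraries. CPT1A was at 4.46 to 4.62 TPM in control and at 9.18 and 14.5 TPM in CBX7 libraries, while CPT1C lay between 3.52 and 3.70 TPM in all 4.

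CPT1B (ENSG00000205560, chr22:50568861-50578465, minus strand) was measured at 2.47 and 2.62 CPM in control and at 4.80 and 4.79 CPM in CBX7 cells. The groups did not overlap, and the log2 fold change was 0.91 (SE 0.21), with 0.82 after the correction. In GENCODE, CPT1B shares 2722 exonic bases with the readthrough gene CHKB-CPT1B, to which 56.4 and 35.2 counts were assigned in control and 28.5 and 51.5 in CBX7 libraries, so the split of counts between both is uncertain. Summed with the readthrough gene, the levels were 4.85 and 4.31 CPM in control and 5.99 and 7.11 CPM in CBX7 cells, a log2 ratio of 0.52. CPT1C (ENSG00000169169, chr19:49690898-49713731, plus strand) had 30 and 27 counts in control and 37 and 28 in CBX7 libraries, with overlapping groups and a log2 fold change of 0.13 (SE 0.31).

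CPT2 (ENSG00000157184, chr1:53196429-53214197, plus strand) was at 14.7 and 14.5 CPM in control and 18.1 and 19.4 CPM in CBX7 cells. Both CBX7 libraries again lay above both controls, with a log2 fold change of 0.36 (SE 0.14), 1.29-fold, and 0.40 after the correction. CPT2 shares 99 exonic bases with C1orf123 on the other strand (367 to 608 counts per library), and as the strand setting of the libraries is not given in the sources used here, reads there cannot be assigned to either gene. The 3 CPT1 genes together summed to 11.7 and 10.9 TPM in control and 18.1 and 23.7 TPM in CBX7 cells, a ratio of means of 1.85. CPT1A made up 39.6% and 40.9% of this TPM sum in control and 50.7% and 61.2% in CBX7 cells. The deposited TPM of CPT1C and CPT1B were high for their counts: in control replicate 1 CPT1C had 3.53 TPM on 30 counts and CPT1A 4.62 TPM on 422 counts, at deposited gene lengths of 2783 and 2382 bases. On the CPM scale, which is not per length, the same sum was 21.4 and 20.1 in control and 48.2 and 56.8 in CBX7 cells, a ratio of 2.53, and CPT1A made up 82.6% and 80.5% of it in control and 86.8% and 89.4% in CBX7 cells. The share of CPT1A in the family thus depended on the scale, while both CBX7 libraries lay above both controls on either. The ratio of summed CPT1 to CPT2 in TPM was 1.54 and 1.39 in control and 2.28 and 2.22 in CBX7 libraries, without overlap.

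The other genes of the shuttle lay closer to control. SLC25A20, the carnitine-acylcarnitine translocase of the inner membrane, was at 11.2 and 9.53 CPM in control and 12.3 and 10.5 CPM in CBX7 cells, a log2 fold change of 0.13 (SE 0.18). SLC22A5, the plasma membrane carnitine transporter OCTN2, differed by −0.04 (SE 0.21). For CRAT, the carnitine acetyltransferase, the log2 fold change was 0.15 (SE 0.15) before and −0.01 after the correction. CROT, the peroxisomal carnitine octanoyltransferase, differed by 0.05 (SE 0.15). After the correction SLC25A20 was at 0.07, SLC22A5 at −0.07 and CROT at 0.10. The groups of these 4 genes overlapped before the correction. Across the 8 shuttle genes the median log2 fold change was 0.14, with 3 genes higher in both CBX7 libraries, where 15.4% of all genes tested were, and 0 lower, where 14.8% were.

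Genes of fatty acid activation lay near or below control. The long-chain acyl-CoA synthetases ACSL1, ACSL3 and ACSL4 had overlapping groups, with log2 fold changes of −0.12 (SE 0.15), 0.10 (SE 0.14) and −0.14 (SE 0.21). ACSL4, the synthetase that prefers arachidonic acid, had the highest mean TPM of the family in both groups, although ACSL3 exceeded it in CBX7 replicate 1 (41.8 against 37.5 TPM). It was at 209 and 234 CPM in control and at 162 and 240 CPM in CBX7 cells, where replicate 1 was the lowest and replicate 2 the highest of the 4 libraries. After the correction ACSL3 was at 0.16 with groups that did not overlap, and ACSL4 at −0.04. ACSL5, a mitochondrial synthetase, had only 16 counts in each control and 11 and 9 in the CBX7 libraries, a log2 fold change of −0.73 (SE 0.40). Its CBX7 libraries lay below both controls, but ACSL5 passed the count filter through the control group alone, which favours a lower CBX7 value. It also shares 144 exonic bases with ZDHHC6 on the other strand, to which 634 to 811 counts were assigned per library. The median over the 4 genes was −0.13.

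Acyl-CoA dehydrogenases catalyse the first step of each cycle, each for its own chain length. ACADVL, for very long chains, was at 161 and 150 CPM in control and at 186 and 152 CPM in CBX7 cells, a log2 fold change of 0.12 (SE 0.15) that was −0.003 after the correction. ACADM, for medium chains, was at 47.2 and 44.9 CPM in control and 45.2 and 47.8 CPM in CBX7 cells, a log2 fold change of 0.01 (SE 0.13). ACADS, for short chains, was at 10.0 and 8.57 CPM in control and 13.6 and 9.40 CPM in CBX7 cells. Only CBX7 replicate 1 lay above both ACADS controls, and the log2 fold change of 0.31 (SE 0.23) became 0.04 after the correction. ACADSB, for short branched chains, differed by 0.14 (SE 0.18), and by 0.27 (SE 0.09) after the correction, with groups that then did not overlap. ACAD9, which also serves in complex I assembly, differed by 0.09 (SE 0.14), and by 0.04 after it. ACADL, for long chains, was near the detection limit at 8 and 9 counts in control and 17 and 6 in CBX7 libraries.

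HADHA and HADHB encode the α and β subunits of the mitochondrial trifunctional protein, which carries out the remaining steps for long chains. HADHA was at 255 and 247 CPM in control and 277 and 251 CPM in CBX7 cells (log2 fold change 0.07, SE 0.13), and HADHB at 63.4 and 59.2 against 67.3 and 62.9 CPM (0.09, SE 0.13). The groups overlapped for both. The ratio of HADHA to HADHB in TPM stayed between 2.45 and 2.54 in the 4 libraries, and the RefSeq starts of these genes lie head to head on chromosome 2. HADH, the short-chain hydroxyacyl-CoA dehydrogenase, differed by −0.01 (SE 0.13), and ACAA2, the mitochondrial thiolase, by 0.12 (SE 0.18). ECHS1, the short-chain enoyl-CoA hydratase, was at 76.6 and 69.4 CPM in control and 110 and 77.5 CPM in CBX7 cells. The ECHS1 groups did not overlap, but CBX7 replicate 2 exceeded the higher control by little, and the log2 fold change of 0.36 (SE 0.20) was 0.13 after the correction.

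The auxiliary enzymes for unsaturated fatty acids were highest in CBX7 replicate 1 on the CPM scale. ECI1, an enoyl-CoA isomerase, was at 25.1 and 22.1 CPM in control, 34.0 CPM in CBX7 replicate 1 and 21.04 CPM in CBX7 replicate 2, the highest and the lowest of the 4 libraries. Its log2 fold change of 0.22 (SE 0.25) was −0.02 after the correction. ECI2, a further isomerase, differed by 0.03 (SE 0.18) and DECR1, the mitochondrial dienoyl-CoA reductase, by 0.14 (SE 0.17), both with CBX7 replicate 1 highest and CBX7 replicate 2 lowest in CPM. In TPM, both CBX7 libraries lay below both controls for ECI2 and DECR1, where 17.4% of all genes tested were lower in this way. ECI2 was at 100.5 and 96.8 against 108 and 106 TPM, and DECR1 at 112 and 110 against 115 TPM in each control. For ECI1, CBX7 replicate 1 was also the highest in TPM (42.4) and CBX7 replicate 2 the lowest (29.2).

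ETFA and ETFB encode the subunits of the electron transfer flavoprotein, which passes electrons from the dehydrogenases to ETFDH and the respiratory chain. ETFA was at 111 and 107 CPM in control and 136 and 114 CPM in CBX7 cells, with groups that did not overlap and a log2 fold change of 0.20 (SE 0.15), the same after the correction. ETFB was at 38.3 and 33.7 CPM in control, 56.9 CPM in CBX7 replicate 1 and 31.96 CPM in CBX7 replicate 2. Its log2 fold change of 0.30 (SE 0.28) had overlapping groups and was 0.36 after the correction, which used the deposited gene length. The TPM of ETFB were high for its counts at that length. In control replicate 1 it had 88.5 TPM on 915 counts at 3551 bases, and HADHA 120 TPM on 6088 counts at 2982 bases. DECR1 had 115 TPM on 1245 counts at 2760 bases there. The corrected values of ETFB and DECR1 are therefore uncertain. The ratio of ETFA to ETFB in TPM was 1.41 in CBX7 replicate 1 and 2.10 in CBX7 replicate 2, with the controls between them at 1.59 and 1.81. ETFDH differed by −0.02 (SE 0.17). It shares 490 exonic bases with PPID on the other strand and 131 with C4orf46. The dehydrogenases, later steps of the cycle, auxiliary enzymes and electron transfer of the set held 16 tested genes. Of these, 2 were higher in both CBX7 libraries (15.4% of all genes), 0 were lower (14.8%) and 14 overlapped. After the correction 5 were higher, 1 was lower and 10 overlapped, against 18.2% and 21.6% of all genes. The median was 0.12 before and 0.06 after it.

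The peroxisomal genes of the set, ACAA1, the peroxisomal thiolase, and ACOX3, an acyl-CoA oxidase for branched chains, had log2 fold changes of 0.08 (SE 0.19) and −0.09 (SE 0.16) with overlapping groups, and of 0.02 and −0.16 after the correction. Among the regulators, PPARA, the receptor PPARα, was at 22.2 and 27.5 CPM in control, 17.9 CPM in CBX7 replicate 1 and 32.8 CPM in CBX7 replicate 2. The CBX7 libraries were thus the lowest and the highest, and the log2 fold change was 0.03 (SE 0.30). After the correction PPARA was at 22.1 and 24.2 CPM in control and 23.2 and 28.8 CPM in CBX7 cells, still overlapping, with a log2 fold change of 0.17 (SE 0.13). PPARD, the receptor PPARδ, was at 51.0 and 51.4 CPM in control and 49.3 and 45.4 CPM in CBX7 cells, below both controls by a log2 fold change of −0.11 (SE 0.13). PDK4, the pyruvate dehydrogenase kinase that is a common PPAR target, had 11 counts in each control and 4 and 7 in the CBX7 libraries (−1.03, SE 0.53), and like ACSL5 it passed the filter through the control group alone. PPARGC1A, the coactivator PGC-1α, had 1 count in 1 control library and 0 in the others.

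Counted over the set, 5 of 33 genes (CPT1A, CPT1B, CPT2, ECHS1 and ETFA) were higher in both CBX7 libraries than in both controls, 3 (ACSL5, PPARD and PDK4) were lower and 25 overlapped. Over all genes tested 15.4% were higher and 14.8% lower in this way. After the length and GC correction 10 were higher and 5 lower, where 18.2% and 21.6% of all genes were. CROT, ACSL3, ACADSB, ACAD9 and HADHB then joined the higher genes, and HADH and ACOX3 the lower ones. The median log2 fold change was 0.09 (0.09 also without CPT1A, 0.04 after the correction), against 0.002 over all genes tested. CBX7 replicate 1 was the highest library for 20 of 33 genes (60.6%), against 40.3% of all genes. With the edgeR quasi-likelihood test 0 of 33 genes had an adjusted p under 0.05, where 0.0202% of all genes did, and 3 (CPT1A, CPT1B and CPT2) had an unadjusted p under 0.05, where 4.74% did. DESeq2 called 1, CPT1A, where it called 0.451% of all genes. As the comparison chose the set, nothing is read from these counts.

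**Figure D2:**
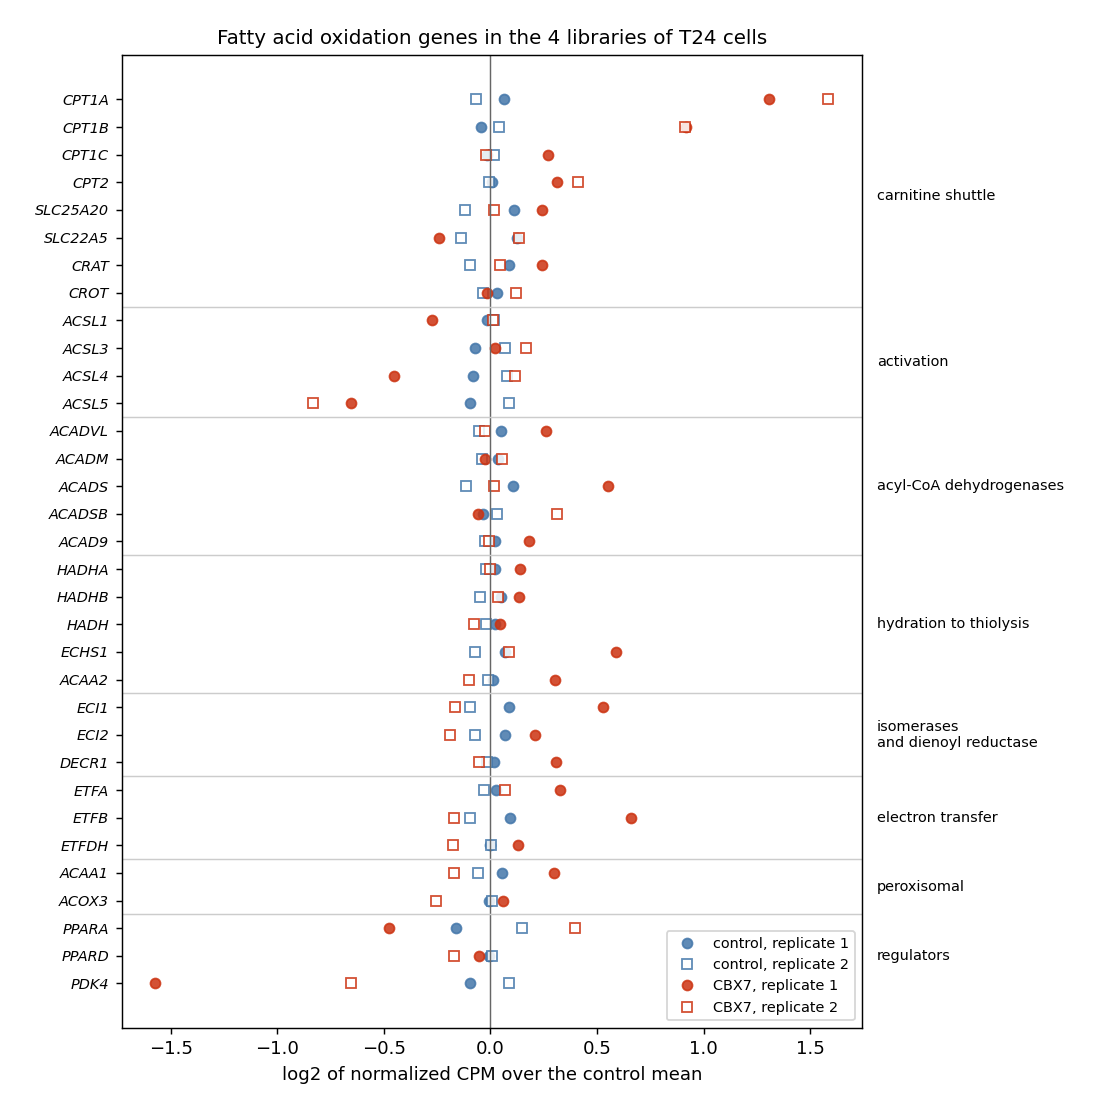
Normalized CPM of the 33 tested genes in each library as log2 over the mean of the control libraries, which is the vertical line at 0, with genes grouped by role. Blue marks control and red CBX7, filled circles replicate 1 and open squares replicate 2. CPT1A and CPT1B have both CBX7 libraries far to the right, and CBX7 replicate 1 is the highest library for 20 of the 33 genes.

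**Figure D3:**
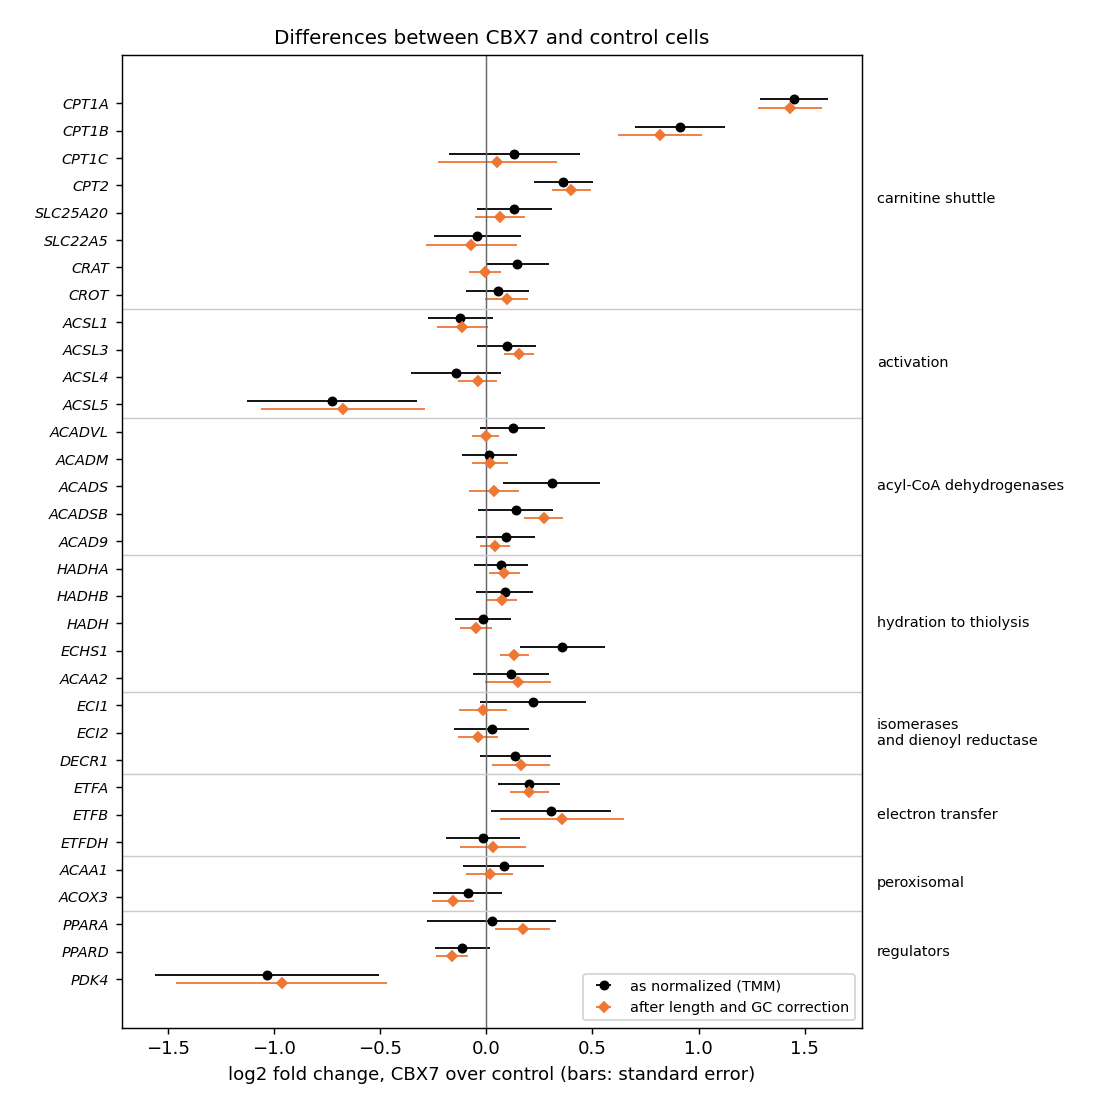
Log2 fold change of CBX7 over control cells for the 33 tested genes, with standard errors as bars, as normalized by TMM (black circles) and after the length and GC correction of each library (orange diamonds). CPT1A stays at 1.45 and 1.43, while ACADS goes from 0.31 to 0.04 and ECI1 from 0.22 to −0.02.

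Per transcript length, genes of the β-oxidation cycle and electron transfer had the highest levels among the 35 genes in both groups. Mean control levels were 177 TPM for ACADVL, 144 for ETFA, 121 for HADHA, 115 for DECR1 and 107 for ECI2. CPT1A ranked number 27 of the 35 genes in control and number 20 in CBX7 cells. The 35 genes summed to 1374 and 1381 TPM in control and 1365 and 1403 TPM in CBX7 cells, so the CBX7 libraries were the lowest and the highest. CPT1A made up 0.336% and 0.323% of this sum in control and 0.672% and 1.03% in CBX7 cells.

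**Figure D4:**
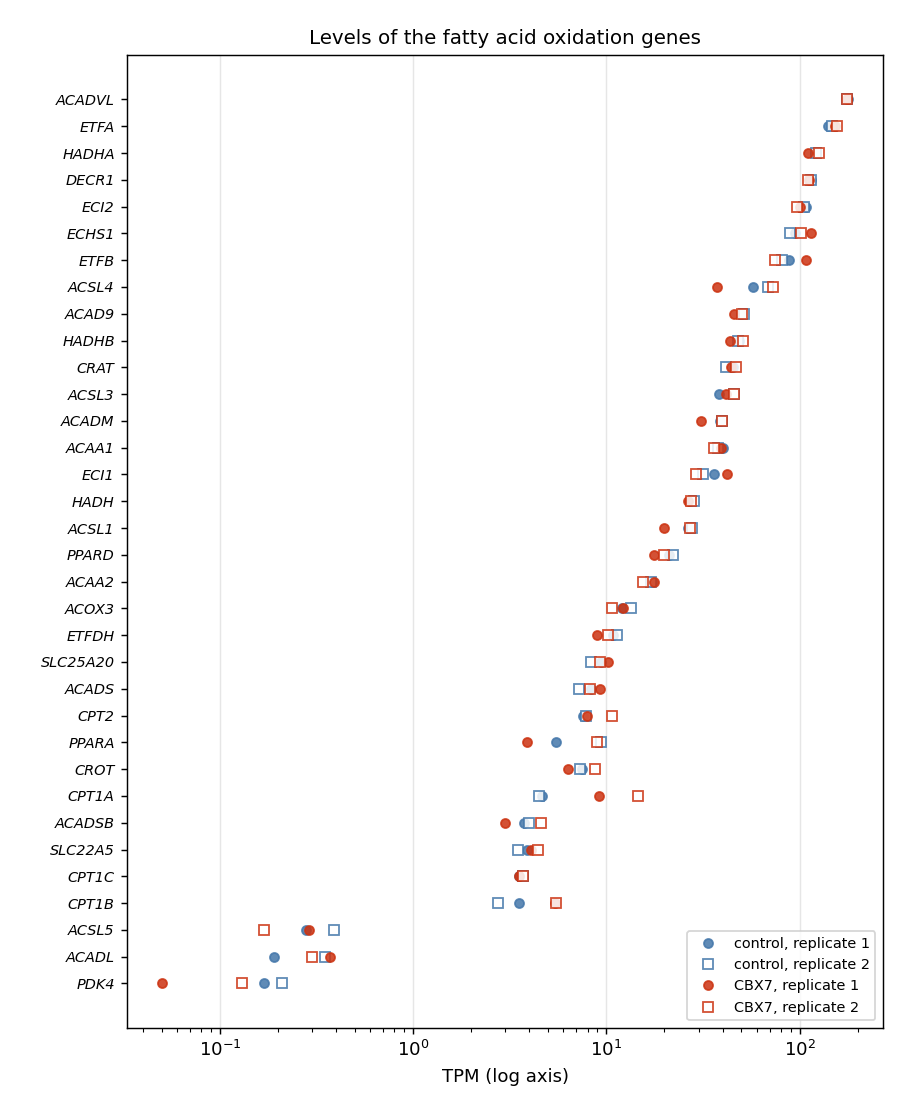
TPM of 34 of the 35 genes in the 4 libraries on a log axis, ordered by the control mean. PPARGC1A, at a control mean of 0.005 TPM, is left out. CPT1A moves from 4.46 and 4.62 TPM in control to 9.18 and 14.5 TPM in CBX7 libraries. The 5 genes most abundant in control lie between 96.8 and 179 TPM in all 4 libraries.

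RefSeq promoter windows were found for 30 of the 35 genes (44 windows), and the median was 20 CG dinucleotides and 66.0% GC. Entries for CPT1B, CRAT, ACAA1, ETFDH and DECR1 were not in the table used. Exact letters were searched on both strands. The GC box GGGCGG stood in 31 of 44 windows, against 42.6% of all windows, whose median GC content was lower (58.0%). By gene, for which no such share is given, it stood before 25 of 30. There were 3 matches before CPT2 and 0 before CPT1A. The core of PPAR elements, a direct repeat of 2 copies of AGGTCA 1 base apart, stood in 0 windows of the set and 0.0171% of all. A single copy of AGGTCA, which the repeat contains, stood in 1 of 44 windows (ACSL5) and 12.1% of all windows. The element TCAAGGTCA of estrogen-related receptors, which also contains that copy, stood in 0 and 0.319%. The E-box CACGTG stood in 2 of 44 windows, before ACAD9 and PPARGC1A (6.34% of all windows), and TATAAA in 1, before ACADVL (10.7%). These matches describe letters in the windows only.

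Other genes of the pathway were taken from lists by function, 98 genes that are not in the set, of which 83 were tested. In these 0 had an adjusted p under 0.05 with edgeR, against 0.0202% of all genes, 0 with DESeq2, against 0.451%, and 4 an unadjusted p under 0.05, against 4.74%. By range, 19 were higher in both CBX7 libraries (15.4% of all genes), 10 lower (14.8% of all genes) and 54 overlapped, and the median log2 fold change was 0.03. After the correction 20 were higher and 11 lower, where 18.2% and 21.6% of all genes were. The 4 genes, named after their values were seen, were SLC27A3, a fatty acid transport protein (0.60, SE 0.24), LIPE, the hormone-sensitive lipase (0.65, SE 0.22), PLIN2, a coat protein of lipid droplets and PPAR target (0.47, SE 0.15), and PDK3, a pyruvate dehydrogenase kinase (−0.42, SE 0.14). After the correction PDK3 was at −0.19 with overlapping groups, while the other 3 stayed higher without overlap, at 0.44 to 0.57. Their adjusted p ran from 0.901 to 0.951 (edgeR). PLIN2 was at 14.9 and 12.6 CPM in control and 19.1 in each CBX7 library. LIPE is also on the adipocyte marker list and made up nearly all of its TPM sum. It was at 1.83 to 2.59 TPM in control and 3.55 to 4.01 TPM in CBX7 libraries. ADIPOQ of that list was at 0 or 1 count in every library, LEP at 0 and PLIN1 at 1 to 4. All libraries came from the T24 line, and a part of adipocytes was not tested.

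Within each list the ranges that follow cover genes averaging 50 counts or more. Genes that set the malonyl-CoA level come first. Within this list of 9 the log2 fold changes ran from −0.46 (SE 0.30) for PRKAA2, a catalytic subunit of AMP-activated kinase, to 0.26 (SE 0.20) for MLYCD, the malonyl-CoA decarboxylase, with a median of −0.10. After the correction these genes were at −0.29 and 0.41. The lowest value of the peroxisomal list was −0.24 (ACBD5). Carnitine synthesis and transport spanned −0.17 (SLC22A4) to 0.18 (SLC25A29), and other acyl-CoA oxidation −0.02 (GCDH) to 0.30 (MCEE). SLC25A29 and MCEE were at 0.07 and 0.08 after the correction, and GCDH was at −0.17. The highest value of the ketone body list was 0.17 (BDH1). In fatty acid uptake and activation, the lowest value was 0.03 (ACSF2). All 10 tested genes of that list, also those under 50 counts, had values above 0 before the correction (the lowest was −0.06 after it). FABP4, SLC27A5 and ACSL6 among them averaged only 14.5, 7.4 and 8.9 counts, with overlapping groups. The median of the 10 was 0.22, against 0.002 over all genes tested. Of the 10, 5 were higher in both CBX7 libraries, where 15.4% of all genes were. After the correction 3 were, where 18.2% of all genes were, and the median was 0.16. Partners of the PPAR and ERR receptors ran from −0.21 for NRIP1, a corepressor, to 0.52 for PPARGC1B, the coactivator PGC-1β, all 13 with overlapping groups before the correction, where 15.4% of all genes were higher and 14.8% lower without overlap. After it 3 (PPARGC1B at 0.66, ESRRA at 0.05 and RXRA at 0.005) were higher and 2 (RXRB at −0.11 and PPRC1 at −0.06) lower, where 18.2% and 21.6% of all genes were, and NRIP1 was at −0.10. The lipolysis list reached from −0.16 (MGLL) to the value of LIPE.

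Of the 6 nearest protein-coding genes of CPT1A on chromosome 11, named for their position, 5 were tested. TESMIN, a gene of the testis, begins 3056 bases beyond the end of CPT1A on the same strand. It had 44 and 31 counts in control and 79 and 60 in CBX7 libraries, higher in both, with a log2 fold change of 0.84 (SE 0.28; adjusted p = 0.916, edgeR). GAL, the galanin gene, was at 0.47 (SE 0.42) on 9 to 15 counts and passed the filter through the CBX7 group only. It was at 0.20 after the correction. MRPL21 was at 0.36 (0.08 after the correction), IGHMBP2 at 0.01 (−0.04) and PPP6R3 at −0.06 (0.05). TESMIN stayed at 0.83. MRGPRD was at 0 counts.

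**Figure D5:**
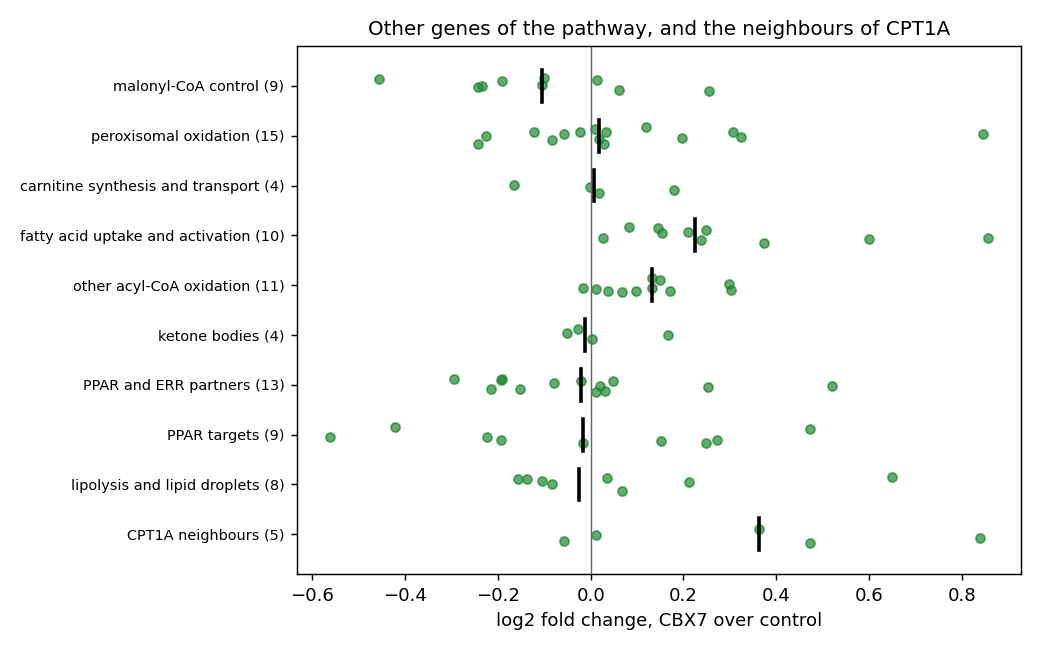
Log2 fold change of CBX7 over control for each tested gene of the 9 lists of other pathway genes and for the neighbours of CPT1A, 1 point per gene, with the number of tested genes in brackets and the median of each list as a vertical bar. Medians lie between −0.10 and 0.22 in the 9 pathway lists and at 0.36, the value of MRPL21, for the 5 neighbours, whose median was 0.08 after the length and GC correction.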

How the data were processed

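RNA of 2 control and 2 CBX7-overexpressing T24 libraries was sequenced on an Illumina HiSeq instrument. The authors deposited 1 table with an estimated count per gene and library that need not be whole (exactly whole for 66.9% to 68.6% of the genes above 0 in a library, and for 88.2% to 88.9% of all 60623 genes, zeros included), TPM values, group means of TPM, the gene length, and columns of their own comparison of the groups (fold as a ratio, log2 value, p-value before and after adjustment), which were not used. The submitters' processing notes name cutadapt 1.9.1, HISAT2 2.0.1, HTSeq 0.6.1, DESeq2 and hg19 without roles, and the counting settings, which could split overlapping genes, are not given in the sources used here. Positions and GC content came from GENCODE release 29 on GRCh38, which need not be the authors' annotation (a GC value for 96.4% of genes), and promoters from RefSeq (GRCh38.p14).

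Counts were rounded to whole numbers, passed through filterByExpr and scaled by TMM in edgeR 4.0.16 (R 4.3.3). The test was glmQLFTest after glmQLFit, in the older default form, on condition alone, adjusted by Benjamini-Hochberg over all genes tested. CPM are TMM-scaled. SE was taken as the log2 fold change over √F. TPM were compared as deposited. For the correction, each library's log2 CPM deviation was fitted on deposited length and GC content (mgcv 1.9.3, genes averaging 100 counts or more). The fitted trend entered as an offset. Alternatives were DESeq2 1.42.0, other size factors, other filters, the newer quasi-likelihood form, the replicate block, TPM, a stricter threshold and each library left out. The fits were tested on simulated data. Named were all genes of the set, CBX7 and, per list of other pathway genes, those past the threshold or else the largest and smallest log2 fold change among genes averaging 50 counts or more, except some that are not reported here. SLC27A3, LIPE, PLIN2 and PDK3 were named as a count of 4 and the neighbours of CPT1A by position, after their values were seen, likewise RXRA, ESRRA, RXRB and PPRC1, and MUT of the list was found as MMUT. The genes of the set and the lists were chosen with earlier results of these data known. The sum of CPT1B with CHKB-CPT1B was chosen after seeing the data.

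Summed counts were 23626206 and 20800910 in control and 25135488 and 21961166 in CBX7 libraries, and a count of 0 allows up to 3 counts (0.119 to 0.144 CPM), for counting error only. Libraries of a group differed by more than sampling noise (chi-square per degree of freedom 6.51 in control and 60.1 in CBX7), so none was a copy.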

Additional observations from a re-analysis of the deposited data

How the results depend on the processing

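The log2 fold change of CPT1A was 1.42 to 1.45 in the fits to all 4 libraries, 1.30 to 1.59 with 1 library left out, 1.33 on log2(TPM + 0.1) and 1.18 on log2(TPM + 1), and CBX7 stayed within 7.26 to 7.44. Calls moved more. Genes past an adjusted p of 0.05 were 3 with edgeR, 67 with DESeq2, 265 without a filter, 5 after the length and GC correction, 1 at an adjusted p under 0.01, and 45 to 5491 with 1 library left out (5491 without CBX7 replicate 2, 397 without CBX7 replicate 1, 59 without control replicate 1). The 33 genes of the set past that threshold numbered 0 with edgeR, 1 (CPT1A) with DESeq2 (0.451% of all genes called) and without a filter (1.01%), and 0 to 13 with 1 library left out (13 without CBX7 replicate 2, where 35.5% of all genes were called, 3 without CBX7 replicate 1, 2.59%, and 1 without control replicate 1, 0.384%). Other pathway genes past it were 0, and 0 to 29 with 1 library left out (29 without CBX7 replicate 2, where 35.5% of all genes were called, and 2 without CBX7 replicate 1, 2.59%). With 1 library in a group, that library is assumed to vary like the other group. The replicate block gave 361 calls (2.43% of all genes), 2 of them in the set (CPT1A and CPT1B), and with the length and GC correction 143 (0.962%) and 1 (CPT1A). The replicate numbers are not said to mark a shared batch and 2 pairs are too few to tell: deviations of same-numbered libraries correlated at 0.31 over 14862 genes and 0.61 over 11077, and the block is not read as a pairing. Genes of the set higher in both CBX7 libraries were 5, 3 with upper-quartile scaling (13.3% of all genes), 10 after the correction with or without the block (18.2%), and 6 to 22 with 1 library left out (22 without CBX7 replicate 2, 43.9% of all genes, 13 without CBX7 replicate 1, 35.4%, 14 without control replicate 1, 29.7%, and 6 without control replicate 2, 22.3%). Genes lower were 3, 1 with at least 10 counts in every library, where ACSL5 and PDK4 are no longer tested (14.5% of all genes), 5 after the correction with or without the block (21.6%), 5 on both TPM scales (17.4%), and 3 to 13 with 1 library left out (13 without CBX7 replicate 1, 34.7% of all genes, 8 without CBX7 replicate 2, 43.3%, 3 without control replicate 1, 29.4%, and 3 without control replicate 2, 22.5%). The median log2 fold change was 0.02 to 0.18 with 1 library left out. In fits to 4 libraries 27 of 33 genes kept 1 sign, while 19 changed sign among the fits with 1 library left out. Of 479 alternative values of single genes 435 moved by less than the replicate spread and 44 by more, and CPT1B was 0.52 when summed with CHKB-CPT1B. Where no construction is named, the cause was not tested.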
